A study of Mus musculus with 12 samples.

Results

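The genes described here make cholesterol and fatty acids or control their making. The set held 31 named genes, 21 of the sterol branch and 10 of the fatty acid branch. They were chosen as the probes whose gene symbol, or Entrez number after renaming (Sc4mol is now Msmo1), belonged to the set. 28 of the 31 genes, with 44 probes, were measured on the array, and Hmgcs1, Fdft1 and Acaca were not analysed here. All 28, 19 sterol and 9 fatty acid genes, passed the filter on dim probes, out of 13280 genes tested in all. That filter kept a probe detected on at least 3 of the 12 arrays, whichever groups those arrays belonged to.

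VC1 is a mouse lung cancer cell line, labelled as lung adenocarcinoma of a female A/J mouse, and was grown in DMEM with fetal bovine serum. Cells were exposed for 6 h to 15 µM DMF (dimethyl fumarate), to 0.05 µM CDDO-Im, to 0.1 µM CDDO-Me or to the solvent DMSO, with 3 arrays a group. CDDO-Im and CDDO-Me are synthetic oleanane triterpenoids, the imidazolide and the methyl ester of the same acid, and DMF is a much smaller fumarate ester. All 3 compounds are electrophiles known to activate the transcription factor NRF2. One cell line gave every array, and nothing in the labels says whether the 3 replicates were separate cultures, so p-values measure only the spread between these arrays, which may be technical. In a bulk measurement of a culture, fewer cells of a kind and less RNA per cell cannot be told apart.

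Cholesterol is built from acetyl-CoA through mevalonate, farnesyl diphosphate, squalene and lanosterol, and fatty acids are built from acetyl-CoA by fatty acid synthase and then elongated and desaturated. Most of these enzymes are transcriptional targets of the SREBP proteins, encoded by Srebf2 (mainly the sterol branch) and Srebf1 (mainly the fatty acid branch). When sterols are plentiful, the membrane protein Insig1 holds the SREBP precursor in the endoplasmic reticulum, and Insig1 is itself an SREBP target, so its transcript is widely used as a readout of this feedback.

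2 arrays stood apart from the rest. The median correlation of log2 signals with the 10 others was 0.936 for CDDO-Im replicate 2 and 0.916 for DMSO replicate 1, against 0.99 to 0.995 for the others, and their mean raw signals were 457.2 and 439.6, against 551.6 to 683.7. On CDDO-Im replicate 2 the fatty acid genes lay a median of -0.50 log2 units from the group's other arrays and the sterol genes -0.01, and on DMSO replicate 1 the medians were -0.70 and -0.33. Shifts up and down cancel in these medians. Without regard to sign, the median deviation on CDDO-Im replicate 2 was 0.67 for fatty acid, 0.71 for sterol and 0.51 for all genes. On DMSO replicate 1 it was 0.97, 0.94 and 0.58. Both arrays were on chip 1 of the 2 BeadChips. Each result is therefore given for all 12 arrays and for the 10 others, and DMF against CDDO-Me, which needs neither array, also from its own 6 arrays. Epithelial markers Krt8, Krt18, Krt19, Cdh1 and Nkx2-1 were detected on every array, while Epcam, Sftpc and Cldn4 were detected on none. No gene of the fibroblast, leukocyte or endothelium marker lists was detected on all 12 arrays.

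The 3 promoters below belong to the genes on which the results turn: Acss2, which was higher with every compound, Insig1, which separated DMF from the triterpenoids, and Msmo1, the sterol enzyme with the largest difference between DMF and DMSO in the 10 arrays. They were chosen after their values were seen. Each is the 250 bases before the gene's start, 5′ to 3′ on the gene's strand, from RefSeq on GRCm38.p6. Capitals mark CCAAT (the NF-Y motif), CACGTG (an E-box) and GGGCGG (the Sp1 motif) on either strand. Acss2 lies at chr2:155517793-155518042 on the + strand, Insig1 at chr5:28071162-28071411 on the + strand and Msmo1 at chr8:64733579-64733828 on the - strand.
Acss2: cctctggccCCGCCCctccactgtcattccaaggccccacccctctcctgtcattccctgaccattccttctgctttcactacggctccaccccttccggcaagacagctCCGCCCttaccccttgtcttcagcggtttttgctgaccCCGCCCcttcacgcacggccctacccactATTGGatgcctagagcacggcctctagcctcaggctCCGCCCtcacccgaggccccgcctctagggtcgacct
Insig1: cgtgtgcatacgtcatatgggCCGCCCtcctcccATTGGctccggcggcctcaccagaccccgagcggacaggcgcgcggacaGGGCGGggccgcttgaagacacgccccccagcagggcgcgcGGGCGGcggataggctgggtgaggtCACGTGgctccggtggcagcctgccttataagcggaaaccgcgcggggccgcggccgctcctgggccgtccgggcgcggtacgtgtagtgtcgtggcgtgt
Msmo1: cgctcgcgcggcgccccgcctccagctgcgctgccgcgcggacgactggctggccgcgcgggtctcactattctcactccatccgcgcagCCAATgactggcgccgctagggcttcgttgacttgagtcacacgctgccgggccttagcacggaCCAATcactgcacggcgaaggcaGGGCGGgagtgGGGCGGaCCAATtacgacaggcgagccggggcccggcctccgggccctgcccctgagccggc
The Acss2 window held 1 CCAAT and 4 GGGCGG. The Insig1 window held 1 CCAAT, 1 CACGTG and 3 GGGCGG, and the Msmo1 window held 3 CCAAT and 2 GGGCGG. Of the 28 genes, 22 had a promoter in the RefSeq table, 16 sterol and 6 fatty acid. CCAAT was present in 15 of the 16 sterol windows and 3 of the 6 fatty acid windows, against 37.5% of 27025 genes. GGGCGG was present in 15 sterol and 4 fatty acid windows, against 35.4% of genes, and CACGTG in 4 sterol windows (Dhcr7, Hsd17b7, Insig1 and Sc5d) and 0 fatty acid windows, against 6.86%. The sterol regulatory element, searched only as TCACNCCAC, was in 0 of the 22, against 1.22% of genes. Other forms of the element and bases outside these 250 were not searched. At so low a share, 0 of 22 does not show that the promoters lack such elements. The core of the antioxidant response element to which NRF2 binds, TGANNNNGC, was in 12 sterol and 2 fatty acid windows, against 38.7%. GC content was not matched in these shares, and the windows shown had 64.0%, 72.8% and 72.0% GC.

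Acss2 was the member that separated every compound from the solvent. It encodes the cytosolic acetyl-CoA synthetase, which makes acetyl-CoA from acetate, and it lies on chromosome 2. Its normalised log2 signals were 9.03, 8.76 and 8.84 with DMF, 9.44, 8.89 and 9.34 with CDDO-Im and 9.30, 9.24 and 9.22 with CDDO-Me, against 5.27, 7.69 and 7.36 with DMSO. Each of the 9 treated arrays was above each of the 3 DMSO arrays. All arrays were above DMSO for 11.2% of all genes with DMF, 8.47% with CDDO-Im and 11.8% with CDDO-Me. The lowest value, 5.27, was that of DMSO replicate 1, on which the probe was not detected. A second Acss2 probe was detected on 0 of the 12 arrays, so the Acss2 values rest on 1 probe.

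With all 12 arrays the log2 difference of Acss2 from DMSO was 2.04 ± 0.52 (SE) with DMF (limma adjusted p = 0.248), 2.45 ± 0.50 with CDDO-Im (limma adjusted p = 0.0405) and 2.42 ± 0.52 with CDDO-Me (limma adjusted p = 0.0645). Without the 2 arrays that stood apart the differences were smaller and their errors much smaller. They were 1.38 ± 0.08 with DMF, a 2.60-fold difference (limma adjusted p = 4.03e-05), 1.86 ± 0.09 with CDDO-Im, 3.63-fold (limma adjusted p = 7.65e-06), and 1.76 ± 0.08 with CDDO-Me, 3.38-fold (limma adjusted p = 5.36e-06). Acss2 passed the threshold in all 16 settings of the 10-array fit for each compound, with log2 differences of 0.82 to 1.47 for DMF, 1.17 to 1.96 for CDDO-Im and 1.10 to 1.85 for CDDO-Me. In the 12-array fit the call for CDDO-Im was kept in 2 of the 12 fits that left out 1 array (without DMSO replicate 1 and without DMSO replicate 2) and lost in the other 10. On chip 1 the log2 differences were 2.55, 2.68 and 2.82 for DMF, CDDO-Im and CDDO-Me, and on chip 2, which held neither of the 2 arrays, they were 1.44, 1.98 and 1.87. Some groups had a single array on a chip: DMF and CDDO-Me on chip 1, CDDO-Im and DMSO on chip 2.

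Acss2 was the only member called in the 12-array fit of any comparison with DMSO. A call is a limma adjusted p under 0.05, adjusted over all 13280 genes. For CDDO-Im it was 1 of 28 members, beside 1.81% of all genes. For CDDO-Me it was 0 of 28 with limma, beside 1.42% of all genes, and 1 member had an unadjusted p under 0.05. For DMF it was 0 of 28 with limma, beside 0.346% of all genes, and 4 members had an unadjusted p under 0.05. The share of all genes at an unadjusted p under 0.05 is not given, so the unadjusted counts cannot be set against it.

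**Figure D1:**
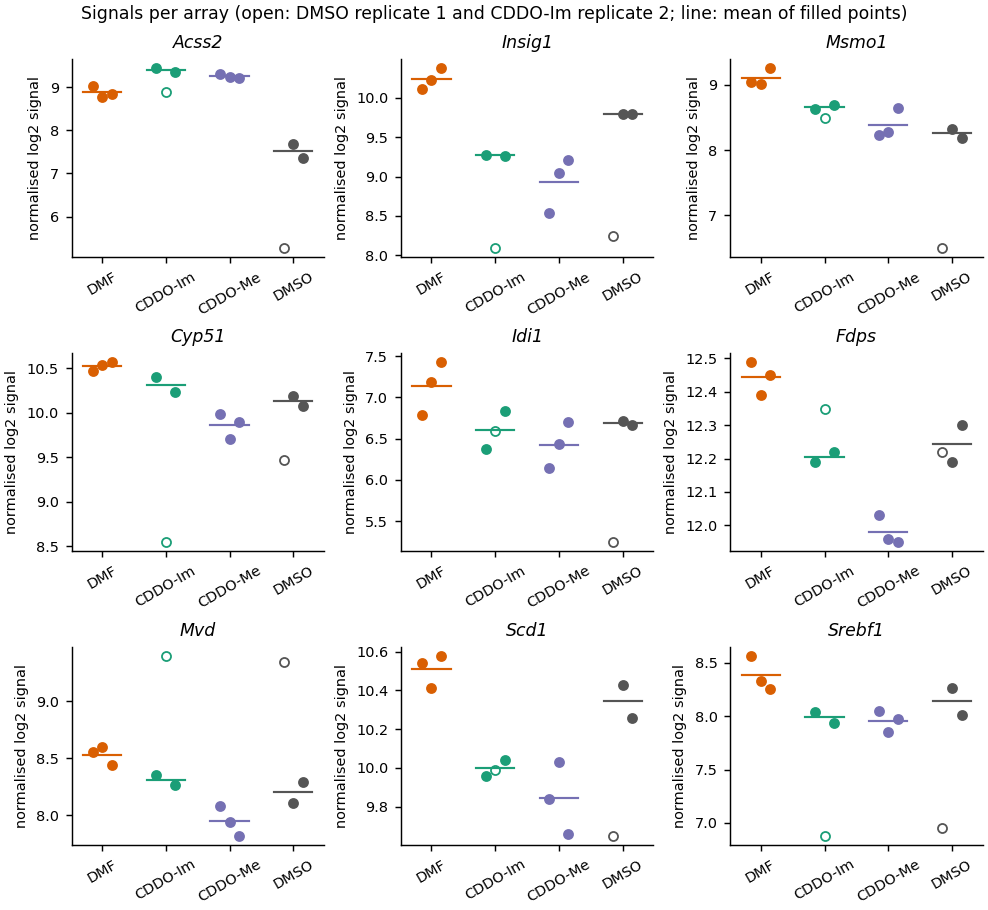
Normalised log2 signal (vertical axis) of 9 members on each array, by group. Open points are DMSO replicate 1 and CDDO-Im replicate 2, and lines are means of the filled points. Acss2 is higher in all 9 treated arrays than in DMSO. On the Insig1 probe shown, the 3 DMF arrays, 10.11 to 10.38, lie above every other array.

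Insig1, the sensor that holds the SREBP precursor in the endoplasmic reticulum, had log2 signals of 10.11, 10.23 and 10.38 with DMF, 9.28, 8.09 and 9.26 with CDDO-Im and 8.54, 9.04 and 9.21 with CDDO-Me, against 8.25, 9.79 and 9.80 with DMSO. On this probe, the brightest of Insig1, the 3 DMF arrays were above all 9 others. The CDDO-Im and CDDO-Me arrays were all below DMSO replicates 2 and 3 on it. Its 2 lowest values were those of the arrays that stood apart. On another kept probe DMSO replicate 1 was highest at 9.61, above the DMF arrays (9.26, 9.16 and 9.42). The 12-array difference with DMF was 0.21 on that probe and 0.41 on the remaining kept one. With all 12 arrays the log2 difference of the brightest probe from DMSO was 0.78 ± 0.40 with DMF, -0.40 ± 0.39 with CDDO-Im and -0.53 ± 0.40 with CDDO-Me, with limma adjusted p-values of 0.661, 0.641 and 0.719. In the 10 arrays Insig1 fell by 0.91 with CDDO-Me (SE 0.14, limma adjusted p = 0.0053), while the differences were -0.53 ± 0.16 with CDDO-Im (limma adjusted p = 0.0718) and 0.41 ± 0.14 with DMF (limma adjusted p = 0.121). The call for CDDO-Me held in all 16 settings of the 10-array fit, that for CDDO-Im was reached in 4 and that for DMF in 2. Those settings use the brightest Insig1 probe. With the p-values adjusted over all probes, the other 2 kept Insig1 probes gave -0.70 (limma adjusted p = 0.0201) and -0.58 (limma adjusted p = 0.137) for CDDO-Me in the 10 arrays, so the direction was shared by the 3 probes and the call was not made by one of them.

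Early in the sterol branch, Acat2 (acetoacetyl-CoA thiolase), Pmvk (phosphomevalonate kinase) and Mvd (mevalonate diphosphate decarboxylase) were called against DMSO for none of the compounds in either fit. Mvk, mevalonate kinase, had log2 signals of 5.41, 5.40 and 5.39 with DMF, 5.71, 6.75 and 5.72 with CDDO-Im and 5.41, 5.56 and 5.44 with CDDO-Me, against 5.01, 5.47 and 5.33 with DMSO. It is a dim probe, detected on 10 arrays, on which all 3 CDDO-Im arrays were above the others. In the 10 arrays Mvk rose by 0.31 ± 0.08 with CDDO-Im (limma adjusted p = 0.0476), a call made in 4 of 16 settings.

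Idi1 converts isopentenyl diphosphate to dimethylallyl diphosphate, and Fdps, farnesyl diphosphate synthase, condenses such units. Idi1 was called against DMSO in neither fit. Fdps signals were 12.49, 12.39 and 12.45 with DMF, 12.19, 12.35 and 12.22 with CDDO-Im and 12.03, 11.96 and 11.95 with CDDO-Me, against 12.22, 12.19 and 12.30 with DMSO. All CDDO-Me arrays were below DMSO and all DMF arrays above it. Fdps fell by 0.26 with CDDO-Me in the 10 arrays (SE 0.07, limma adjusted p = 0.0442, called in 6 of 16 settings), and its difference with DMF was 0.20 ± 0.07 (limma adjusted p = 0.121). A second, dimmer Fdps probe gave 0.63 with DMF (limma adjusted p = 0.0228 over all probes) and 0.03 with CDDO-Me in the 10 arrays, so the 2 probes made different calls.

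In the later steps DMF stood higher than the solvent for 5 enzymes in the 10 arrays. Msmo1, methylsterol monooxygenase, which removes methyl groups from lanosterol derivatives, had log2 signals of 9.04, 9.02 and 9.26 with DMF, 8.63, 8.50 and 8.69 with CDDO-Im and 8.23, 8.28 and 8.65 with CDDO-Me, against 6.49, 8.33 and 8.18 with DMSO. The 3 DMF arrays were above all others, and DMSO replicate 1 was far below the rest. Msmo1 rose by 0.84 ± 0.13 with DMF (limma adjusted p = 0.00835, called in 14 of 16 settings), while its differences with CDDO-Im and CDDO-Me were 0.41 ± 0.15 and 0.12 ± 0.13 (limma adjusted p = 0.126 and 0.634). With all 12 arrays the Msmo1 difference with DMF was 1.34 ± 0.40 (limma adjusted p = 0.413).

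The other 4 were Lss (lanosterol synthase), 0.44 ± 0.09, Hsd17b7 (a 3-ketosteroid reductase of cholesterol synthesis), 0.43 ± 0.07, Cyp51 (lanosterol demethylase), 0.41 ± 0.09, and Sqle (squalene epoxidase), 0.35 ± 0.08. Their limma adjusted p-values were 0.0252, 0.0122, 0.0327 and 0.0413, and they were called in 12, 13, 7 and 5 of the 16 settings. Hsd17b7 was also higher with CDDO-Im in the 10 arrays, by 0.35 ± 0.08 (limma adjusted p = 0.0293, 8 of 16 settings). Tm7sf2, Nsdhl, Ebp, Sc5d and Dhcr7, the remaining late enzymes measured, were called in neither fit against DMSO. Nor were Srebf2, which encodes the SREBP of the sterol branch, and Stard4, a cholesterol carrier.

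In the fatty acid branch Scd2, a stearoyl-CoA desaturase, rose by 0.48 ± 0.11 with DMF in the 10 arrays (limma adjusted p = 0.0338, 7 of 16 settings). Its relative Scd1 had log2 signals of 10.54, 10.41 and 10.58 with DMF, 9.96, 9.99 and 10.04 with CDDO-Im and 9.84, 10.03 and 9.66 with CDDO-Me, against 9.65, 10.43 and 10.26 with DMSO. DMSO replicate 1 was the lowest array, and the triterpenoid arrays lay below both other DMSO arrays. Scd1 fell by 0.50 with CDDO-Me in the 10 arrays (SE 0.12, limma adjusted p = 0.0293, 11 of 16 settings), and the difference with CDDO-Im was -0.35 ± 0.13 (limma adjusted p = 0.129). Acly (ATP citrate lyase), Elovl6 (an elongase), Fads1 and Fads2 (desaturases) and Srebf1 were called in neither fit against DMSO. The same held for Fasn, fatty acid synthase, whose probe was detected on 5 arrays.

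Counted over the members, the 10-array fit called 7 of 28 higher and 0 lower with DMF, beside 4.16% of all genes higher and 4.26% lower. It called 3 higher and 0 lower with CDDO-Im, beside 5.75% higher and 5% lower, and 1 higher and 3 lower with CDDO-Me, beside 5.55% higher and 5.54% lower. For CDDO-Im and CDDO-Me the members' shares were thus not far from those of all genes. The DMF count moved when single arrays were left out: it was 2 without DMSO replicate 3, 3 without DMF replicate 2, and 4 without DMF replicate 3, CDDO-Im replicate 1 or CDDO-Im replicate 3. The CDDO-Me count was 2 without CDDO-Me replicate 1, CDDO-Me replicate 3 or DMSO replicate 3. The CDDO-Im count was 1 without CDDO-Im replicate 1, CDDO-Im replicate 3, CDDO-Me replicate 2 or DMF replicate 2. For these fits the share of all genes called is not given, and fits of fewer arrays have fewer samples. Such counts show how calls moved and do not compare members with all genes. The 3 compounds share their DMSO arrays, and with 2 of them in the 10-array fit the differences of 1 gene move together.

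**Figure D2:**
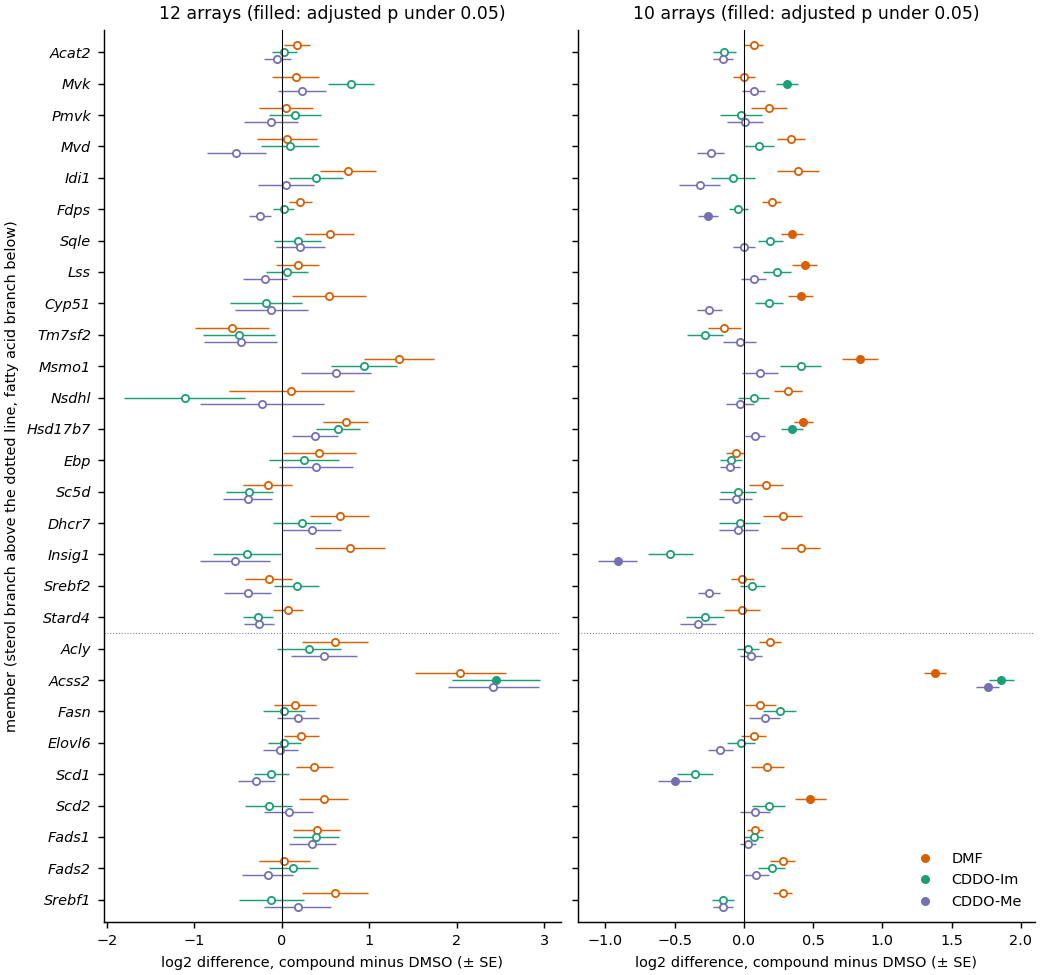
Log2 difference of each member from DMSO (horizontal axis, bars ± SE from limma) with DMF, CDDO-Im and CDDO-Me, in all 12 arrays (left) and in 10 (right). Filled points have an adjusted p under 0.05. Acss2 is far to the right in both panels, and the other filled points appear only in the 10 arrays.

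The study has compounds of 2 kinds, so DMF was set against the mean of the triterpenoids and against each. The doses differ, and these comparisons are of conditions, not of compounds at matched dose. With all 12 arrays limma called 0 of 28 members for DMF against both triterpenoids (0.0678% of all genes were called), 0 against CDDO-Im (0%) and 0 against CDDO-Me (0.0904%). At an unadjusted p under 0.05 there were 4, 3 and 4 members, again without the share of all genes. In the 10 arrays DMF was higher for 8 members and lower for 1 against both triterpenoids, beside 2.15% of all genes higher and 2.41% lower. The higher ones were Insig1, Idi1, Scd1, Msmo1, Cyp51, Srebf1, Mvd and Fdps, and the lower one was Acss2.

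Insig1 had the largest of these, 1.13 ± 0.11 (limma adjusted p = 0.00165), and its 2 other kept probes gave 1.01 and 1.03, both past the threshold. On chip 1 and chip 2 the difference was 1.50 and 1.12. Chip 1 held only replicate 1 of DMF and of CDDO-Me, and it held CDDO-Im replicate 2, which stood apart. Acss2 was lower with DMF by -0.43 ± 0.06 (limma adjusted p = 0.00803). Both calls held in all 16 settings of the 10-array fit, and Srebf1 (0.43 ± 0.06) was called in 15. The count of 9 was 4 without DMF replicate 1, DMF replicate 3, CDDO-Im replicate 1 or CDDO-Im replicate 3, and 6 without DMF replicate 2 or CDDO-Me replicate 2. Those counts too stand without the share of all genes called in the same fits.

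Against CDDO-Im alone, with 2 of its arrays, DMF was higher in the 10-array fit for Insig1 (0.94 ± 0.14, limma adjusted p = 0.0182) and Srebf1 (0.43 ± 0.07, limma adjusted p = 0.0305) and lower for Acss2 (-0.48 ± 0.08, limma adjusted p = 0.0234), beside 0.655% of all genes higher and 1.15% lower. Without DMF replicate 1, DMF replicate 3, CDDO-Im replicate 1 or CDDO-Im replicate 3 the count was 0, and without DMF replicate 2 or CDDO-Me replicate 2 it was 1. Here again the share of all genes called in those fits is not given.

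DMF against CDDO-Me is the comparison whose fit needs neither of the 2 arrays, though signals were normalized and probes chosen over all 12. Fitted on its own 6 arrays, it had 10 members higher and 1 lower with DMF, beside 1.88% of all genes higher and 1.51% lower. Of the sterol genes 8 of 19 were higher: Insig1, Msmo1, Idi1, Cyp51, Mvd, Fdps, Lss and Hsd17b7. Of the fatty acid genes 2 of 9, Scd1 and Srebf1, were higher and Acss2 was lower. In the fit that shares the spread of 10 arrays, 11 were higher and 1 lower, with Sqle added, beside 2.3% of all genes higher and 1.9% lower. That count of 12 was 7 without DMF replicate 1, 2 or 3 and 5 without CDDO-Me replicate 1 or 2, again without the share of all genes.

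Insig1 again led, with a difference of 1.31 ± 0.11, a 2.49-fold higher signal (95% interval 1.05 to 1.58 in log2 units, limma adjusted p = 0.00534). Msmo1 followed with 0.72 ± 0.12 (limma adjusted p = 0.042) and Idi1 with 0.71 ± 0.10 (limma adjusted p = 0.0283). Idi1 signals were 6.79, 7.18 and 7.43 with DMF, against 6.14, 6.44 and 6.70 with CDDO-Me, so the groups were separate by a narrow margin. Cyp51 signals were 10.47, 10.53 and 10.57 with DMF, against 9.99, 9.70 and 9.90 with CDDO-Me, a wide gap for a difference of 0.66 ± 0.09 (limma adjusted p = 0.0218). Mvd signals were 8.55, 8.60 and 8.44 with DMF, against 8.08, 7.94 and 7.82 with CDDO-Me, which gave 0.58 ± 0.08 (limma adjusted p = 0.0227).

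Scd1 was higher by 0.67 ± 0.11 (limma adjusted p = 0.0396), and Srebf1, with signals of 8.57, 8.33 and 8.26 with DMF against 8.05, 7.85 and 7.97 with CDDO-Me, by 0.43 ± 0.07 (limma adjusted p = 0.0321). Fdps, Lss and Hsd17b7 were higher by 0.46 ± 0.05, 0.37 ± 0.05 and 0.35 ± 0.05. Acss2 was lower by -0.38 ± 0.06 (limma adjusted p = 0.0385), on the background of its rise with both compounds in the 10 arrays. All 3 DMF arrays were above all 3 CDDO-Me arrays for 20 of the 28 members (10.2% of all genes) and below them for 1, Acss2 (12.1%). The sign was the same on both chips for 26 members, 24 of them higher with DMF, and Insig1 differed by 1.57 on chip 1 and 1.19 on chip 2. On chip 1 each difference is DMF replicate 1 minus CDDO-Me replicate 1, a single array from each group. How many of all genes had the same sign on both chips is not given, so the count of 26 cannot be set against it.

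The size of that list depended on having all 6 arrays. Leaving out any 1 of the 6, whether DMF replicate 1, 2 or 3 or CDDO-Me replicate 1, 2 or 3, left 1 member called each time, and that member was Insig1. Leaving out DMF replicate 1 or CDDO-Me replicate 1 gave the same values. The array then alone on chip 1 is taken up by the chip term, so these are not separate checks. For these fits and the block fit below, the share of all genes called is not given. Same-numbered DMF and CDDO-Me arrays deviated together (correlations of 0.345, 0.141 and 0.172). They also shared a chip, which these deviations do not correct for, so pairing and chip cannot be told apart. With the replicate number as a block 6 members were called, all higher with DMF: Insig1, Msmo1, Idi1, Cyp51, Mvd and Fdps. Insig1 was called in all 12 settings of the 6-array fit and in all 16 of the 10-array fit. In the 12-array fit of the same comparison it was called in 5 of 30 settings, and in 0 of the 12 that left out 1 array.

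**Figure D3:**
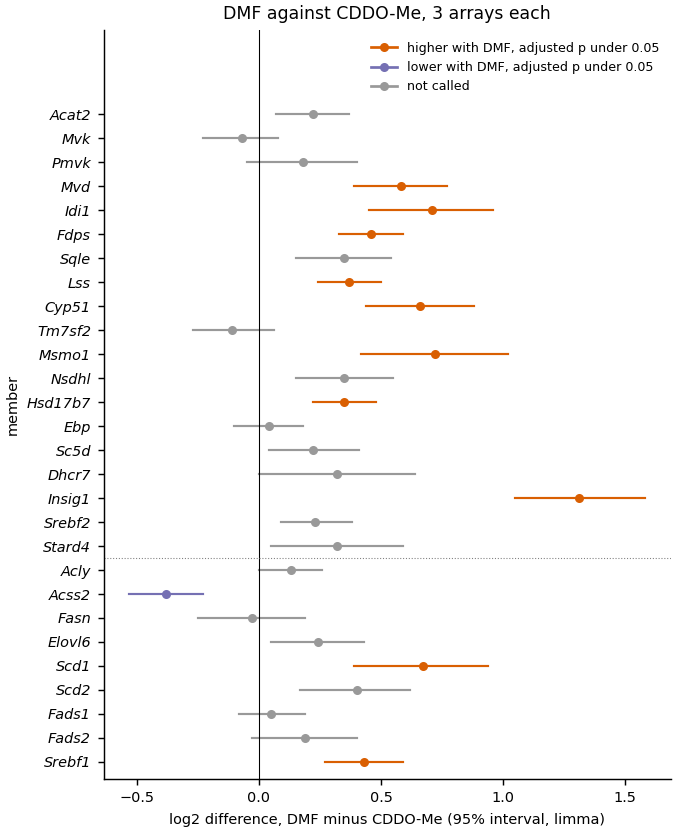
Log2 difference DMF minus CDDO-Me for each member, from 3 arrays each (points, with 95% limma intervals), sterol genes above the dotted line. Orange points are higher with DMF at an adjusted p under 0.05 and the purple point is lower. Insig1 lies farthest right at 1.31 and Acss2 is lower at -0.38.

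Between the triterpenoids no test was made, because their doses differ. Side by side, in the 10 arrays, Acss2 differed from DMSO by 1.86 with CDDO-Im and 1.76 with CDDO-Me, Insig1 by -0.53 and -0.91, Scd1 by -0.35 and -0.50, Cyp51 by 0.18 and -0.25 and Mvd by 0.11 and -0.24.

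The branches were compared by the median over their members, with no test. In the 10 arrays the sterol and fatty acid medians of the log2 difference from DMSO were 0.285 and 0.186 with DMF (all genes -0.021), -0.017 and 0.071 with CDDO-Im (all genes -0.016), and -0.065 and 0.055 with CDDO-Me (all genes -0.019). With all 12 arrays they were 0.181 and 0.404 with DMF, 0.091 and 0.035 with CDDO-Im, and -0.125 and 0.179 with CDDO-Me, so the order of the branches with DMF changed with the 2 arrays. For DMF against both triterpenoids the medians were 0.283 and 0.144 in 10 arrays and 0.274 and 0.214 in 12.

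By array, the sterol median relative to DMSO replicates 2 and 3 was 0.31, 0.14 and 0.26 for DMF, 0.02, 0.05 and 0.07 for CDDO-Im and -0.03, -0.17 and -0.11 for CDDO-Me, against -0.33, 0.02 and -0.02 for DMSO. The DMF arrays were highest and the CDDO-Me arrays below 0. The fatty acid median was 0.23, 0.15 and 0.14 for DMF, 0.08, -0.39 and 0.02 for CDDO-Im and 0.03, -0.02 and 0.05 for CDDO-Me, against -0.70, 0.08 and -0.08 for DMSO. The 2 low values are CDDO-Im replicate 2 and DMSO replicate 1. DMSO replicates 2 and 3 mirror each other around 0 because their mean was taken off, so their values do not show the spread of the solvent group. Without regard to sign, the median difference between these 2 arrays was 0.15 for sterol and 0.17 for fatty acid genes.

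**Figure D4:**
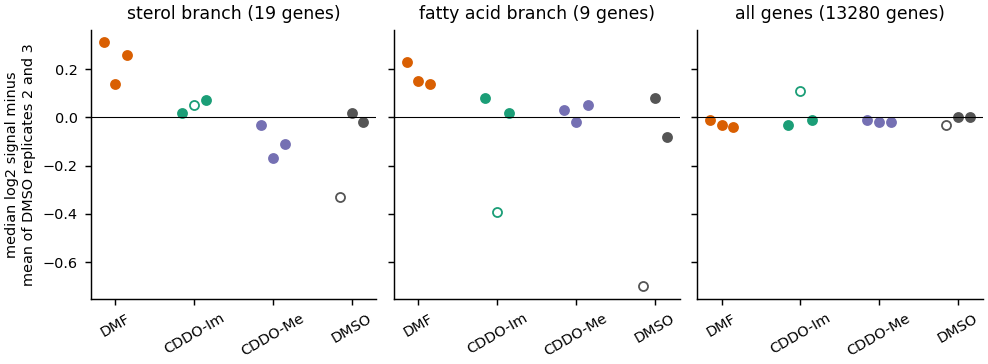
Median log2 signal over the 19 sterol genes, the 9 fatty acid genes and all 13280 genes on each array, minus the mean of DMSO replicates 2 and 3 (vertical axis). Open points are CDDO-Im replicate 2 and DMSO replicate 1. The DMF arrays are highest for the sterol genes (0.14 to 0.31), and the open points are lowest for the fatty acid genes (-0.39 and -0.70).

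Of the other genes of the pathways, listed apart from the members, 24 of 29 sterol and 25 of 30 fatty acid genes were tested. Limma called none of them in the 12-array fit, neither for a compound against DMSO nor for DMF against both triterpenoids. At an unadjusted p under 0.05 there were 0 sterol and 4 fatty acid genes for DMF, 4 and 7 for CDDO-Im, 1 and 3 for CDDO-Me, and 1 and 2 for DMF against both triterpenoids. The share of all genes at that level is not given, so these counts cannot be set against it. The smallest p among the other fatty acid genes was that of Acsl3, an acyl-CoA synthetase, for CDDO-Im (-0.70 ± 0.15, limma adjusted p = 0.0552), for CDDO-Me (-0.53 ± 0.16, limma adjusted p = 0.273) and for DMF against both triterpenoids (0.56 ± 0.13, limma adjusted p = 0.334). For DMF against DMSO it was Mid1ip1, a regulator of acetyl-CoA carboxylase (0.58 ± 0.19, limma adjusted p = 0.516). Among the other sterol genes it was Stard3, a late endosomal cholesterol carrier, for CDDO-Im (-0.68 ± 0.20, limma adjusted p = 0.197) and for CDDO-Me (-0.57 ± 0.21, limma adjusted p = 0.459). It was Insig2, a relative of Insig1, for DMF against DMSO (1.08 ± 0.50, limma adjusted p = 0.661) and the sterol exporter Abcg1 for DMF against both triterpenoids (0.87 ± 0.35, limma adjusted p = 1).

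In the 10 arrays the other sterol genes had 1 call higher and 0 lower with DMF, and 1 higher and 1 lower with CDDO-Im and with CDDO-Me. The one that rose was Insig2 each time, by 0.55 ± 0.09 with DMF, 0.56 ± 0.09 with CDDO-Im and 0.56 ± 0.09 with CDDO-Me (limma adjusted p = 0.00811, 0.00722 and 0.0049). The other fatty acid genes had 2 higher and 1 lower with DMF, 2 higher and 1 lower with CDDO-Im and 1 higher and 2 lower with CDDO-Me. DMF against both triterpenoids had 1 higher in each list, Abcg1 (0.80 ± 0.10) and Acsl3 (0.51 ± 0.05).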

How the data were processed

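The intensity of each of 45281 probes is its mean bead signal on 1 of 12 Illumina mouse arrays. Per the file headers the authors exported the intensities with GenomeStudio's Gene Expression module 1.9.0 without normalization. The detection p-values were deposited with them, per the file headers. Samples were grouped by title. The series text writes CDDO-Im beside 0.1 µM where titles and treatment protocol give CDDO-Me, and the titles were followed. A matrix of intensities that the authors normalized in a way not stated was deposited too and served as an alternative.

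Signals were background-corrected with limma 3.58.1 (R 4.3.3), normexp with offset 16 from the detection p-values, then quantile-normalized and log2-transformed. Probes with detection p under 0.05 on at least 3 arrays were kept (19211), and the brightest kept probe of each gene was used (13280 of 30561 genes). Genes were fitted by group and chip (lmFit, eBayes), two-sided, with Benjamini-Hochberg adjustment over all of them. The scripts were tested on simulated data. Array number limits the precision.

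The members, the gene lists and the use of 10 arrays were chosen with earlier results of these data known. All 31 members were named by that choice. From the other lists, genes called with 12 arrays, or else the gene with the smallest p, were named, and those named from the 10 arrays were chosen after their values were seen. Same-numbered arrays did not pair across all groups (correlations of deviations -0.296 to 0.363). For DMF and CDDO-Me the correlations were positive, but their same-numbered arrays also shared a chip, so pairing and chip cannot be told apart. Alternatives covered background, normalization, filter, probe choice, chip or replicate terms, array weights, chip subsets and leaving out each array.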

Additional observations from a re-analysis of the deposited data

Results flagged for a closer look

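For 5 members the arrays of DMF all lay above the mean of the 3 DMSO arrays while those of a triterpenoid all lay below it. By this pattern alone the difference was not tested. The pattern was looked for in the members only, so the count of 5 cannot be set against a share of all genes. With Insig1, DMF minus CDDO-Im was 1.36 (0.96 with DMF and -0.40 with CDDO-Im) and DMF minus CDDO-Me 1.31 (0.96 and -0.35). With Scd1, DMF minus CDDO-Im was 0.51 and DMF minus CDDO-Me 0.67. For CDDO-Me alone it was met by Fdps (0.46), Lss (0.37) and Nsdhl (0.35). These values use the brightest probe of each gene, and for Fdps and Nsdhl other kept probes did not meet the pattern. One Nsdhl probe gave 7.05, 6.81 and 6.90 with CDDO-Me, against 5.26, 7.25 and 6.88 with DMSO, a 12-array difference of 0.44. On the second Fdps probe CDDO-Me replicate 1, at 6.03, was above all DMSO arrays (5.51, 5.83 and 5.62).

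The DMSO mean includes DMSO replicate 1, and the CDDO-Im values include replicate 2, the arrays that stood apart. Tested directly, DMF against CDDO-Me was past the threshold of limma in 6 arrays for Insig1, Scd1, Fdps and Lss and not for Nsdhl (limma adjusted p = 0.0924), and in the 12-array fit for none of them, with limma adjusted p-values of 0.573 for Fdps and 0.769 for Insig1 as the lowest. DMF against CDDO-Im was past it in the 10 arrays for Insig1 and not for Scd1 (limma adjusted p = 0.0778). The parts of the 2 arrays, the chip and single arrays in these patterns were not tested beyond the values given in the report.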

How the results depend on the processing

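For the 12-array fit of each compound against DMSO and of DMF against both triterpenoids, 2973 of the members' values under the alternatives kept their side of the threshold and, where uncalled, moved by no more than their SE, 89 gained a call, 16 lost it and 162 stayed uncalled but moved by more than it. The 1 call of that fit, Acss2 with CDDO-Im, kept its direction in each of its alternatives. This total leaves out DMF against each triterpenoid and the alternatives of the 10- and 6-array fits. The cause of the moves below was not tested, except that fits of fewer arrays have fewer samples. For the alternatives in this section the share of all genes called is not given. Their counts show how calls moved with the setting and do not compare members with all genes. With 12 arrays, members called for CDDO-Im against DMSO (1) were 0 with median scaling, no filter, either replicate block, chip 1 or only the groups compared. For CDDO-Me (0) they were 1 with no background correction, offset 50, cyclic loess, the authors' matrix, no chip term or chip 2. They were 1 on chip 2 for DMF, for DMF against both triterpenoids and for DMF against CDDO-Me, which also had 1 with the authors' matrix and 11 with only the groups compared. Array weights, estimated gene by gene, were 0.0322 for DMSO replicate 1, 0.0419 for CDDO-Im replicate 2 and 0.549 to 4.2 for the others, and gave 5 for CDDO-Im, 6 for CDDO-Me, 11 for DMF, 13 for DMF against both triterpenoids, 7 against CDDO-Im and 15 against CDDO-Me. The 10 arrays, with the same values or processed again, gave 3, 4, 7, 9, 3 and 12 in that order. The sterol median for CDDO-Im was -0.02 on chip 2 and in both 10-array versions, and for CDDO-Me 0.13 with median scaling. For DMF it was 0.37 with median scaling, 0.28 with mean probes, and 0.28 and 0.29 in the 10-array versions. The fatty acid median for DMF was 0.63 with median scaling and 0.19 with 10 arrays, and for CDDO-Me 0.44 on chip 1. Median scaling put the median of all genes at 0.124 for DMF and 0.219 for CDDO-Me, so relative to all genes the sterol median of CDDO-Me stayed below.

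Alternatives of the 10- and 6-array fits were added after seeing the data. Their counts too stand without the share of all genes called in the same setting. With 10 arrays, members called for DMF against DMSO (7) were 4 with the replicate block, 1 with only the groups compared and 13 with the authors' matrix, and its sterol median was 0.19 with the block and 0.16 with that matrix. For CDDO-Me they were 2 with only the groups compared. DMF against both triterpenoids had 15 with the authors' matrix and 14 with no background correction. Against CDDO-Im (3) it had 1 with the replicate block or no chip term, 0 with only the groups compared and 5 with the authors' matrix, and against CDDO-Me 7 with no chip term. With 6 arrays (11) the count was 7 with no chip term or median scaling, 6 with the replicate block and 17 with the authors' matrix. Arrays of different groups are known to share only a number, and for DMF and CDDO-Me also a chip, so the block is not a known pairing.

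Leaving out each of the 12 arrays in turn, members called were 0 to 1 for CDDO-Im, 0 to 1 for CDDO-Me, 0 to 1 for DMF, and 0 each time for DMF against both triterpenoids, CDDO-Im and CDDO-Me. With 12 arrays, the sterol median was -0.03 to 0.13 for CDDO-Im, -0.17 to -0.10 for CDDO-Me, 0.18 to 0.28 for DMF, 0.23 to 0.30 for DMF against both triterpenoids. With 12 arrays, the fatty acid median was -0.15 to 0.25 for CDDO-Im, -0.03 to 0.25 for CDDO-Me, 0.17 to 0.57 for DMF, 0.07 to 0.26 for DMF against both triterpenoids. Leaving out each of the 10 arrays in turn, members called were 1 to 3 for CDDO-Im, 2 to 3 for CDDO-Me, 2 to 7 for DMF, 4 to 10 for DMF against both triterpenoids, 0 to 3 for DMF against CDDO-Im, 5 to 11 for DMF against CDDO-Me. With 10 arrays, the sterol median was -0.06 to 0.12 for CDDO-Im, -0.14 to -0.04 for CDDO-Me, 0.21 to 0.29 for DMF, 0.25 to 0.30 for DMF against both triterpenoids. With 10 arrays, the fatty acid median was 0.05 to 0.15 for CDDO-Im, -0.03 to 0.08 for CDDO-Me, 0.19 to 0.27 for DMF, 0.14 to 0.16 for DMF against both triterpenoids. Leaving out each of the 6 arrays in turn, members called for DMF against CDDO-Me were 1 each time.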
